A study of Mus musculus with 24 samples.

Results

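The 36 genes described here encode the fatty acid oxidation machinery of the kidney and targets of the nuclear receptor PPAR-alpha. They were taken by symbol from the 55487 genes of the deposited count table, and all 36 were found and passed the filter on low counts. The symbols were listed by 10 roles: uptake and activation (Cd36, Acsl1, Acsm3), the carnitine shuttle (Cpt1a, Cpt2, Slc25a20, Crat), acyl-CoA dehydrogenases (Acadvl, Acadl, Acadm, Acads, Acad10, Acad11), mitochondrial hydration, dehydrogenation and thiolysis (Hadha, Hadhb, Echs1, Hadh, Acaa2), enzymes for unsaturated fatty acids (Eci1, Eci2, Decr1, Ech1), electron transfer flavoprotein (Etfa, Etfb, Etfdh), peroxisomal beta-oxidation (Ehhadh, Hsd17b4, Acaa1a, Acaa1b), omega oxidation (Cyp4a10, Cyp4a14), acyl-CoA thioesterases (Acot1, Acot2) and regulators (Ppara, Ppargc1a, Pdk4). The samples were whole kidneys of 24 male mice at 15 weeks of age. All mice were on the B6 background and had XLAS (X-linked Alport syndrome), in which the glomerular filter fails for want of a type IV collagen chain, through the Col4a5 cross named in the labels, so no mouse without that disease stood beside them. The mice were heterozygous (HET) or wild type (WT) for Nbl1, which encodes a secreted antagonist of bone morphogenetic proteins. Batch 1, as the labels call it, held 6 HET and 6 WT mice, and batch 2 held 7 HET and 5 WT mice.

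Fatty acids are the main fuel of the proximal tubule, the kidney segment that reabsorbs most of the filtrate. Long-chain acids are activated to acyl-CoA, carried into mitochondria as carnitine esters and shortened by beta-oxidation, while peroxisomes shorten very long chains and cytochrome P450 enzymes of the Cyp4a family start omega oxidation from the other end of the chain. PPAR-alpha, encoded by Ppara, pairs with the retinoid X receptor on direct repeats of AGGTCA spaced by 1 base and raises transcription of genes in all of these routes when fatty acids bind it.

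The promoters of the members were searched for that direct repeat, since it is the element the receptor is known to bind. The search used the 13 letters AGGTCANAGGTCA with at most 2 mismatches on both strands, in the 300 bases from 250 before to 50 after each RefSeq gene start on GRCm38.p6. The table held 31 promoters of 30 member genes, with no entry for Crat, Acaa2, Decr1, Hsd17b4, Cyp4a10 and Cyp4a14. A match was found for 4 of the 30 genes, against 1268 of all 32851 promoters (3.86%). Each match is written 5′ to 3′ in the direction of the repeat, with the repeat in capitals between 8 flanking bases, to let the copies be read against each other. Fabp1, a fatty acid binding protein and a PPAR-alpha target that is not a member, is shown because its copy had 1 mismatch, and the other 4 had 2.
Cd36: atccaagtAAGTCAGAGGCCAgagaacca
Echs1: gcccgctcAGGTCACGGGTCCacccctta
Etfa: ttgggagtAGGGCAAAGGTAAgggtgtgc
Slc25a20: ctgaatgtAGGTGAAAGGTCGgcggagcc
Fabp1: tcagatatAGGCCATAGGTCAgtgattgt
The capitals of Cd36 lay at chr5:17835947-17835959, -63 to -51 from the RefSeq start used for this minus-strand gene, with the repeat on the strand opposite to the gene. That start lies inside the GENCODE gene given further on, which begins upstream of it, and the other offsets are also from RefSeq starts. For Echs1 they lay at chr7:140116492-140116504, -83 to -71 from the start on the minus strand, in the direction of the gene. Those of Etfa lay at chr9:55512308-55512320, -77 to -65 from the start of a minus-strand gene, opposite to it. The copy of Slc25a20 was downstream of the start, at chr9:108662142-108662154, 6 to 18 in the direction of this plus-strand gene. That of Fabp1 lay at chr6:71199812-71199824, -67 to -55 from the start on the plus strand, opposite to the gene. A match of letters is a description and not a measured binding site.

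Library totals were 29551543 to 33020033 counts in batch 1 and 36380502 to 50746817 in batch 2. Nbl1, the gene that the genotype concerns, was 3.85, 4.12 and 9.21 scaled counts (CPM, a library's counts relative to its size after TMM scaling; lowest, median and highest) in HET and 3.59, 7.17 and 7.71 in WT mice of batch 1. Its batch 2 values were 4.18, 4.99 and 7.88 in HET mice and 7.01, 10.001, 10.999, 11.3 and 15.5 in WT mice. In batch 1 the library labelled HET replicate 6 lay above every WT mouse and that labelled WT replicate 2 below every HET mouse, while WT replicate 1, at 5.35 CPM, lay between most HET and most WT mice. Another gene of low counts, Htr6, had 0 counts in HET replicate 6, 26 in WT replicate 1 and 14 in WT replicate 2. It had 8 to 39 in the other HET and 0 to 1 in the other WT mice of batch 1. The labels of these libraries are therefore in doubt. In batch 2, HET replicate 8 at 7.88 CPM lay above WT replicate 11 at 7.01 CPM. The main fits that use batch 1 and the correlations of gene pairs were also computed without the 3 batch 1 libraries named here. Levels, spreads, marker sums, extremes of single mice and exact permutation tests were computed with them only. All 7 markers of the S1 and S2 proximal tubule were detected in every mouse, with summed levels of 11902 to 14037 CPM in batch 1 and 10298 to 12276 CPM in batch 2. In whole kidney, fewer cells of a type and less RNA per cell cannot be told apart. Of the 36 members, 23 had counts that were not whole numbers in at least 1 library, among them Cyp4a10, Acaa1a, Acaa1b, Acot1 and Acot2 in all 24, so reads shared with similar genes may be split there. Cyp4a14 had none. No source used here gives the strand setting of the counting, and reads of members that overlap other genes, such as Acaa1a with Myd88 or Echs1 with Paox, cannot be assigned to a strand.

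The highest level among the members was that of Acadm, the medium-chain acyl-CoA dehydrogenase, in both batches. Levels are given as TPM, the deposited transcript measure, which are scaled by gene length, and are compared only within a batch. Acadm stood at 248 ± 32.7 TPM (mean ± SD over the 12 mice) in batch 1 and 824 ± 121 in batch 2. Etfb, a subunit of the flavoprotein that takes electrons from the dehydrogenases, was next in batch 1 at 211 ± 14.97 TPM. In batch 2 the medium-chain acyl-CoA synthetase Acsm3 was next, at 547 ± 120.4 TPM, ahead of Etfb at 511 ± 43.6 TPM. The intervals of mean ± SD of Acsm3 and Etfb overlapped in each batch.

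Levels spread widely within the roles. Among the carnitine shuttle genes Cpt1a, the enzyme that forms acylcarnitines at the outer membrane, led at 85.9 ± 7.37 and 161 ± 13.4 TPM in batches 1 and 2. Slc25a20, the carrier across the inner membrane, was the lowest of that role at 17.1 and 36.2 TPM. Of the mitochondrial enzymes that follow the dehydrogenases, Hadh, which oxidises short hydroxyacyl-CoA, led at 144 ± 12.3 and 328 ± 26.1 TPM. Ech1, a dienoyl-CoA isomerase, led the enzymes for unsaturated chains with 157 ± 14.9 and 319 ± 24.8 TPM.

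Peroxisomal Ehhadh, the bifunctional enzyme of the inducible route, stood at 156 ± 25.1 and 349 ± 32.7 TPM. The bifunctional enzyme of the other peroxisomal route, Hsd17b4, stood at 56.6 and 130.5 TPM. Of the omega hydroxylases, Cyp4a10 was at 93.4 ± 22.9 and 202 ± 43.6 TPM and Cyp4a14 at 23.8 ± 20.3 and 29.00 ± 25.4 TPM. The SD of Cyp4a14 was close to its mean in both batches. Ppara itself stood at 19.7 ± 2.99 and 35.03 ± 4.81 TPM. The lowest members were Pdk4, which shuts pyruvate dehydrogenase, at 8.73 ± 2.88 TPM in batch 1, and the thioesterase Acot2 at 14.03 ± 1.09 TPM in batch 2. The plot of TPM by role sets these levels side by side.

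**Figure D1:**
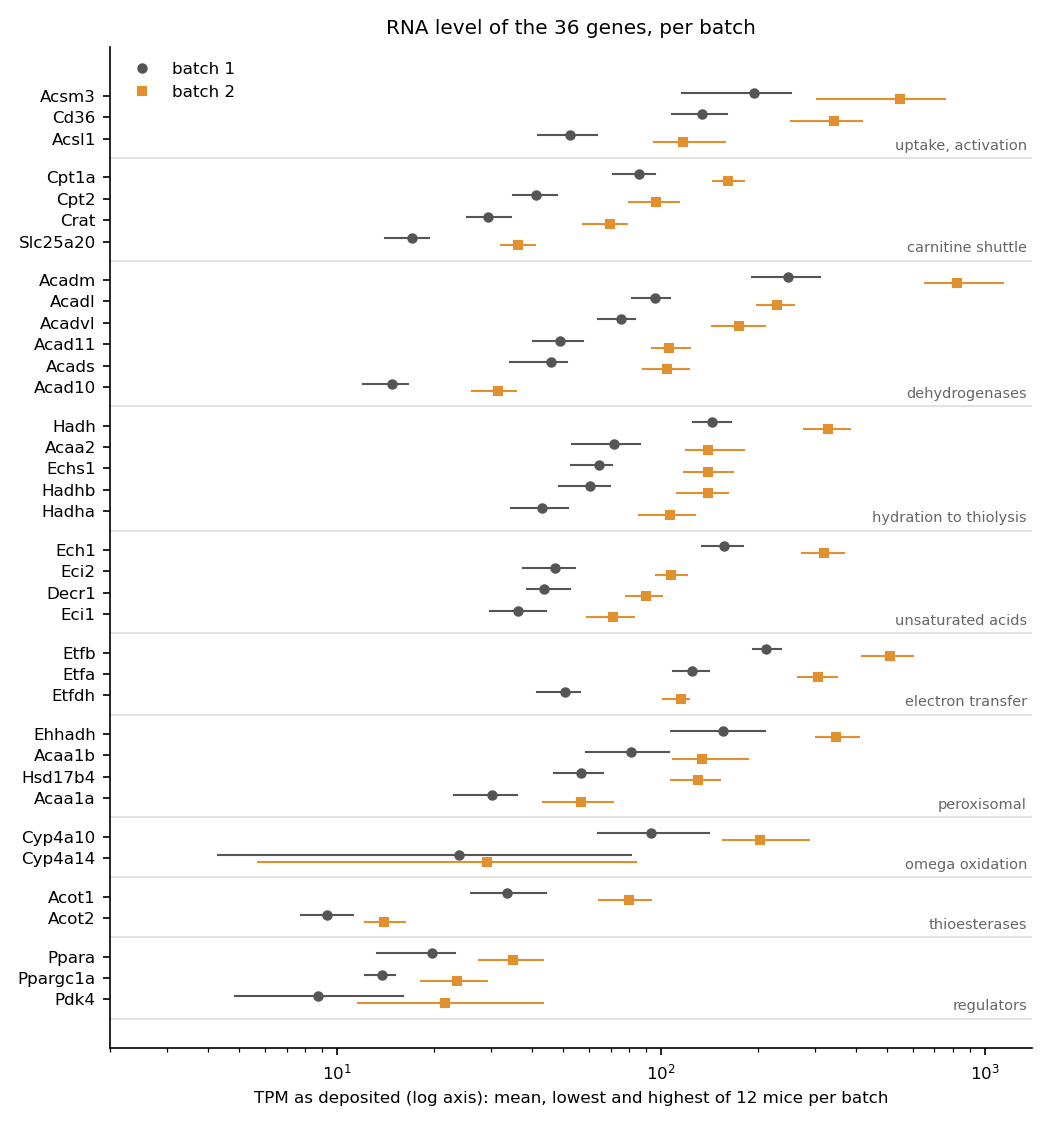
Level of each member in TPM on a log axis, grouped by role, as the mean (point) and range (bar) over the 12 mice of batch 1 (grey circles) and the 12 of batch 2 (orange squares). Acadm is highest in both batches at 247.9 and 824 TPM, and Cyp4a14 has the widest bars.

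Of the 36 members, 0 differed between HET and WT mice at an adjusted p under 0.05, with batch as a covariate in edgeR's quasi-likelihood test. The same test called 0 of 18339 genes (0%), and DESeq2 called none either. Without the 3 batch 1 libraries in doubt, edgeR called 2 of 18528 genes, with no member among them. At an unadjusted p under 0.05 the test on all mice gave 1 member, Pdk4, against 4.12% of all genes. That count was 0 without HET replicate 5 or WT replicate 11. It was 4 without WT replicate 3, beside 4.37% of all genes. The log2 fold change of HET over WT was positive for 27 members and negative for 9, beside 56.3% of all genes positive, and the members' median was 0.03 beside 0.01 over all genes. Those signs did not hold under another scale: on log2(TPM + 1), where the median of all genes was -0.04, only 9 of the 36 were positive. Measured from each scale's own median, 24 members lay above it on counts and 22 on TPM. The adjusted p was 0.997 for each of the 36 members.

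Within batch 1, edgeR called 0 of 18494 genes (0%), DESeq2 1 gene, and neither called a member. The log2 fold change was positive for 20 members beside 49.4% of all genes, with a median of 0.0035. On log2(TPM + 1), with an all-gene median of 0.05, 34 members were positive. The 20 positive members on counts became 12 without HET replicate 6 and 8 without WT replicate 4, but 26 without WT replicate 3. No member had an unadjusted p under 0.05, beside 2.82% of all genes. That count was 3 without WT replicate 3 (2.89% of all genes) and 1 without WT replicate 1 (3.93%). Without the 3 batch 1 libraries in doubt it was 1 (3.15%), and edgeR called 2 of 18709 genes, with no member among them. Within batch 2, edgeR called 1 of 17955 genes (0.00557%) and DESeq2 27 genes, again with no member among them. There 27 members were positive beside 50.1% of all genes, with a median of 0.04, and none had an unadjusted p under 0.05 beside 8.28% of all genes. On log2(TPM + 1), where batch 2 had an all-gene median of -0.13, 4 members were positive and 9 had an unadjusted p under 0.05, beside 21.97% of all genes. The groups overlapped for every member in both batches, beside 0.0865% of genes without overlap in batch 1 and 0.507% in batch 2. The interaction of genotype with batch, the test of the difference between the within-batch values, called 0 of 18339 genes (0%), was positive for 28 members beside 55.3% of all genes, and gave no member an unadjusted p under 0.05 beside 8.2% of all genes. On log2(TPM + 1), where the interaction had an all-gene median of -0.18, 1 member was positive and 6 had an unadjusted p under 0.05, beside 20.8% of all genes. Measured from each scale's own median, 27 members lay above it on counts and 19 on TPM. The plot of fold changes by batch shows the 95% interval of each member.

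**Figure D2:**
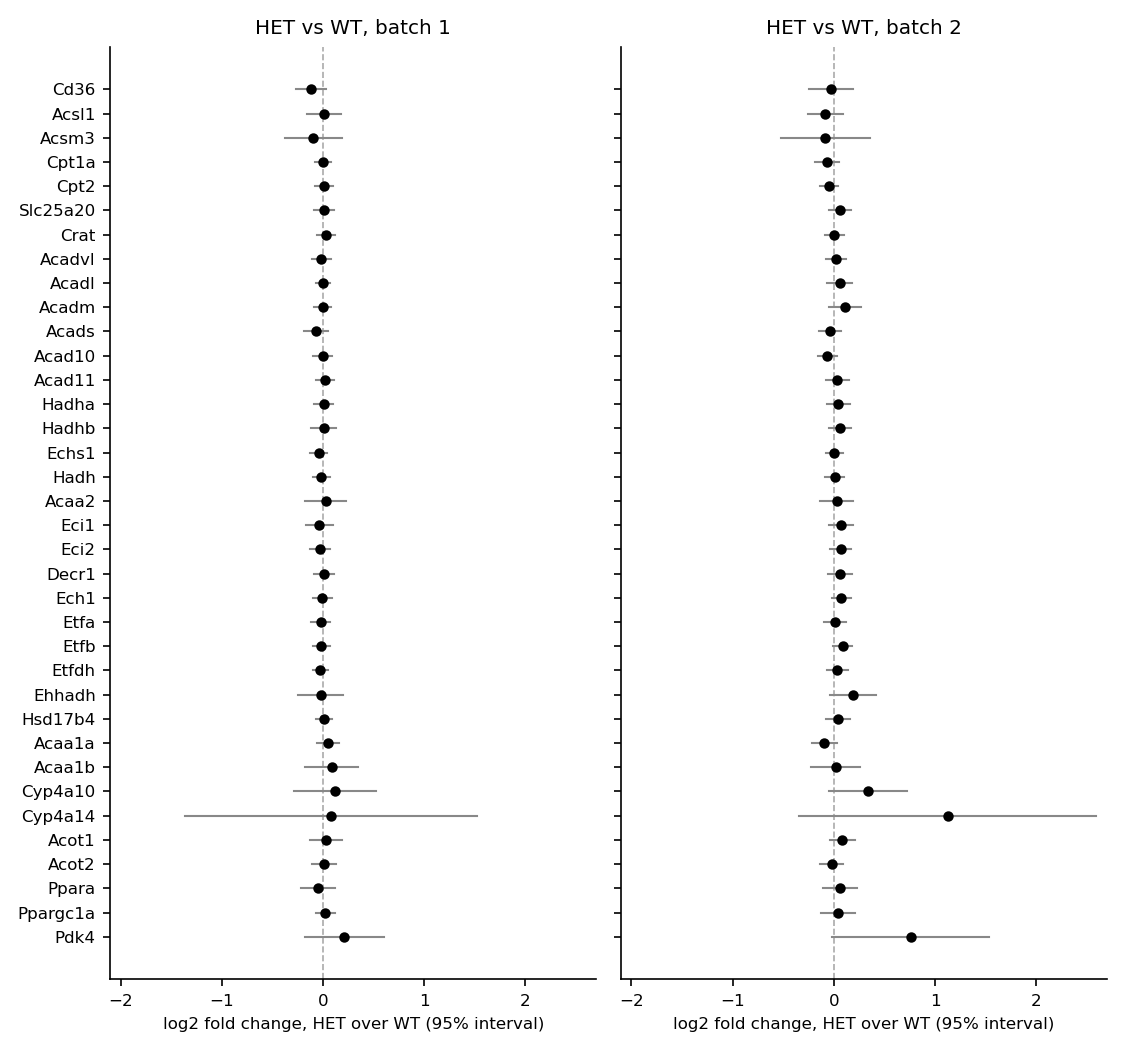
Log2 fold change of HET over WT for each member, with its 95% interval from edgeR's quasi-likelihood test, in batch 1 (6 HET, 6 WT) and batch 2 (7 HET, 5 WT), and a dashed line at 0. Every interval crosses 0, and that of Cyp4a14 is the widest in both batches.

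Gene positions below are those of GENCODE M21 on GRCm38. Uptake and activation genes had negative log2 fold changes of HET over WT in 3 of 3 members over all mice, none past the threshold. Cd36 (ENSMUSG00000002944, chromosome 5, 17781690 to 17888801, minus strand), a fatty acid transporter at the cell surface, ranged over 355, 417 and 436 CPM (lowest, median and highest) in HET and 373, 447 and 512 CPM in WT mice of batch 1. Batch 2 gave Cd36 values of 385, 559 and 609.6 CPM in HET and 479, 483, 577, 605 and 612 CPM in the 5 WT mice. The groups overlapped, and HET replicate 8 lay below every other mouse of its batch. Cd36 had a log2 fold change of -0.07 (standard error 0.07) over all mice, with an exact permutation p of 0.201 in batch 1 and 0.766 in batch 2. Acsm3 (ENSMUSG00000030935, chromosome 7, 119760923 to 119787513, plus strand) was at 593, 622 and 684 CPM in HET and 449.8, 695 and 847 CPM in WT mice of batch 1. Batch 2 held Acsm3 values of 503, 982 and 1086 CPM in HET and 702, 767, 1103, 1129 and 1218 CPM in WT mice, so WT mice spanned the whole HET range in batch 1 and all but a low HET mouse in batch 2. Its log2 fold change was -0.08 (standard error 0.12), with exact permutation p of 0.658 and 0.726 in the 2 batches. Acsl1, the long-chain acyl-CoA synthetase, had a log2 fold change of -0.03 (standard error 0.06). Adipocytes also carry Cd36, and the adipocyte marker sum ran from 1.09 to 135 CPM over the 24 mice. The correlation of Cd36 with Adipoq across mice, after removing the mean of each genotype and batch, was r = -0.02 and rho = -0.00087 (permutation p = 0.935 and 0.998). It was -0.03 without the 2 mice farthest from the median of Cd36, 0.31 within batch 1 and -0.42 within batch 2.

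Carnitine shuttle genes lay within 0.05 of 0 on the log2 scale in 4 of 4 members over all mice. Cpt1a (ENSMUSG00000024900, chromosome 19, 3322334 to 3385733, plus strand) had 437, 448 and 474 CPM in HET and 426, 444 and 495 CPM in WT mice of batch 1. In batch 2 Cpt1a had 426, 439 and 501 CPM in HET and 464, 469.6, 481, 501 and 503 CPM in WT mice. These ranges overlapped closely, with every mouse of either batch between 426 and 503 CPM. For Cpt1a the log2 fold change was -0.02 (standard error 0.04; 95% interval -0.10 to 0.05), with exact permutation p of 0.939 and 0.174 in the 2 batches. Cpt2, which returns the acyl group to CoA inside the mitochondrion, Slc25a20 and Crat, the carnitine acetyltransferase, had log2 fold changes of -0.01, 0.04 and 0.03.

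Acyl-CoA dehydrogenases catalyse the step that opens each round of beta-oxidation, and 4 of the 6 were positive in HET over WT. Acadm (ENSMUSG00000062908, chromosome 3, 153922357 to 153944632, minus strand) was at 547, 582 and 607 CPM in HET and 531, 582 and 624 CPM in WT mice of batch 1. Batch 2 showed Acadm at 651, 803 and 955 CPM in HET and 696, 704, 751, 775 and 790.4 CPM in WT mice. The batch 1 ranges nearly coincided, and in batch 2 the WT mice lay inside the HET range. Acadm had a log2 fold change of 0.06 (standard error 0.05) over all mice and of 0.11 (standard error 0.07) in batch 2, with an exact permutation p of 0.946 in batch 1 and 0.256 in batch 2. Acads (ENSMUSG00000029545, chromosome 5, 115110299 to 115119346, minus strand), for short chains, was at 92.1, 104 and 112 CPM in HET and 95.4, 109 and 115 CPM in WT mice of batch 1. Batch 2 put Acads at 112, 126 and 136 CPM in HET and 120.3, 124, 133, 133 and 136 CPM in WT mice. Its ranges overlapped in both batches, and its log2 fold change was -0.05 (standard error 0.04), with exact permutation p of 0.301 and 0.422. Acad10 (ENSMUSG00000029456, chromosome 5, 121621026 to 121660514, minus strand), a member of the same enzyme family, was at 64.1, 73.9 and 76.6 CPM in HET and 67.9, 73.01 and 76.4 CPM in WT mice of batch 1. Acad10 in batch 2 was at 72.6, 79.9 and 84.1 CPM in HET and 78.8, 81.2, 81.7, 85.2 and 87.5 CPM in WT mice, where the 2 highest values were those of WT mice. The family member Acad10 had a log2 fold change of -0.02 (standard error 0.03), with exact permutation p of 0.963 and 0.122. Acadvl and Acadl, for very long and long chains, and Acad11 had log2 fold changes of 0.01, 0.04 and 0.04.

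The later mitochondrial steps showed the same narrow ranges. Hadh (ENSMUSG00000027984, chromosome 3, 131233419 to 131272101, minus strand) had 304, 324 and 342 CPM in HET and 300.4, 330.1 and 341 CPM in WT mice of batch 1. Hadh values of batch 2 were 370.2, 390.0 and 416 CPM in HET and 373, 376, 395, 398 and 410.3 CPM in WT mice. The genotypes overlapped almost fully, and the log2 fold change was 0.0042 (standard error 0.03; 95% interval -0.06 to 0.07), with exact permutation p of 0.708 and 0.955. Hadha and Hadhb, the subunits of the trifunctional protein, had log2 fold changes of 0.03 and 0.04, the short-chain hydratase Echs1 of -0.01 and the thiolase Acaa2 of 0.04. Ech1 (ENSMUSG00000053898, chromosome 7, 28825217 to 28832247, plus strand) was at 209, 214 and 224 CPM in HET and 193, 217 and 232 CPM in WT mice of batch 1. Batch 2 placed Ech1 at 238, 254 and 273 CPM in HET and 233, 236, 239.5, 255 and 256 CPM in WT mice, with the 3 highest mice being HET. Ech1 had a log2 fold change of 0.04 (standard error 0.03), with exact permutation p of 1 and 0.0985. The isomerases Eci1 and Eci2 and the dienoyl-CoA reductase Decr1 had log2 fold changes of 0.03, 0.03 and 0.05.

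Etfb (ENSMUSG00000004610, chromosome 7, 43444083 to 43457800, plus strand) was at 174, 183 and 188 CPM in HET and 163, 187 and 190.4 CPM in WT mice of batch 1. Etfb in batch 2 was at 201, 207 and 234 CPM in HET and 196, 197, 198, 202 and 208 CPM in WT mice. In batch 2 the lowest 3 mice were WT, while the ranges still overlapped. Over all mice Etfb had a log2 fold change of 0.04 (standard error 0.03), and 0.09 (standard error 0.05) in batch 2. By exact permutation p was 0.803 in the first batch and 0.0505 in the other, and the interaction with batch had an unadjusted p of 0.065 (adjusted p 0.616). Etfa, the partner subunit, and Etfdh, which passes the electrons on to ubiquinone, had log2 fold changes of 0.0017 and 0.01.

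Of the 4 peroxisomal beta-oxidation genes, 3 were positive in HET over WT. Ehhadh (ENSMUSG00000022853, chromosome 16, 21761287 to 21787807, minus strand) ranged over 555, 606 and 676 CPM in HET and 483, 598 and 795 CPM in WT mice of batch 1. Batch 2 gave Ehhadh at 617, 762 and 983 CPM in HET and 637, 642, 653, 709 and 778 CPM in WT mice. WT mice held both the lowest and the highest value of batch 1, and HET mice both of batch 2. Ehhadh had a log2 fold change of 0.09 (standard error 0.08) over all mice and 0.19 (standard error 0.11) in batch 2, with exact permutation p of 0.963 and 0.184. Hsd17b4 and the thiolases Acaa1a and Acaa1b had log2 fold changes of 0.04, -0.01 and 0.06.

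Cyp4a14 varied most among the members, and neither omega hydroxylase passed the threshold between genotypes. Cyp4a10 (ENSMUSG00000066072, chromosome 4, 115518264 to 115533649, plus strand) was at 225, 259 and 301 CPM in HET and 169, 221 and 365 CPM in WT mice of batch 1. Cyp4a10 values in batch 2 were 218, 306 and 437 CPM in HET and 214, 253, 255, 269 and 279 CPM in WT mice. WT mice spanned the whole HET range in batch 1, and in batch 2 the highest values were HET while the lowest was WT. Cyp4a10 had a log2 fold change of 0.24 (standard error 0.13; 95% interval -0.03 to 0.50), with an unadjusted p of 0.0812 and exact permutation p of 0.381 and 0.138 within the batches.

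Cyp4a14 (ENSMUSG00000028715, chromosome 4, 115486200 to 115496142, minus strand), its neighbour on the same chromosome, was at 44.2, 52.2, 79.7, 89.3, 93.1 and 110.4 CPM in the 6 HET mice of batch 1. The 6 WT mice of batch 1 had 14.1, 24.7, 27.7, 60.1, 64.5 and 250.9 CPM. In the 7 HET mice of batch 2 it was 9.61, 23.1, 28.9, 52.7, 61.7, 129.7 and 152.2 CPM, and in the 5 WT mice 15.1, 20.6, 30.1, 35.9 and 49.3 CPM. The highest mouse of all was WT replicate 3 and the lowest HET replicate 13, a 26.1-fold range that crossed the genotypes. The log2 fold change of HET over WT was 0.59 (standard error 0.48; 95% interval -0.40 to 1.58; unadjusted p = 0.229). It was 1.08 without WT replicate 3 and 0.40 without HET replicate 9. Within batches it was 0.08 (standard error 0.65) in batch 1 and 1.13 (standard error 0.66) in batch 2, with exact permutation p of 0.303 and 0.319. In batch 1 leaving out WT replicate 3 gave 1.03, and in batch 2 leaving out HET replicate 9 gave 0.76.

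The thioesterase Acot1 (ENSMUSG00000072949, chromosome 12, 84009490 to 84018371, plus strand), which releases free fatty acid from acyl-CoA, was at 44.4, 46.8 and 49.99 CPM in HET and 41.2, 43.9 and 59.7 CPM in WT mice of batch 1. Batch 2 had Acot1 at 41.2, 48.6 and 53.8 CPM in HET and 42.9, 45.1, 46.2, 46.8 and 46.9 CPM in WT mice, all 5 of them inside the HET range. Acot1 had a log2 fold change of 0.07 (standard error 0.05), with exact permutation p of 0.686 and 0.244. Acot2 had a log2 fold change of 0.0042.

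Ppara (ENSMUSG00000022383, chromosome 15, 85734983 to 85802819, plus strand) was at 58.9, 62.6 and 73.03 CPM in HET and 55.4, 65.96 and 80.4 CPM in WT mice of batch 1. Ppara values of batch 2 were 53.4, 61.8 and 74.9 CPM in HET and 50.7, 60.3, 61.1, 64.7 and 65.6 CPM in WT mice. The receptor gene overlapped between genotypes in both batches, and its log2 fold change was 0.01 (standard error 0.06; 95% interval -0.11 to 0.13), with exact permutation p of 0.632 and 0.554. Ppargc1a (ENSMUSG00000029167, chromosome 5, 51454250 to 51567726, minus strand), a coactivator of PPAR-alpha and of mitochondrial genes, was at 92.6, 97.9 and 106 CPM in HET and 87.03, 97.5 and 104 CPM in WT mice of batch 1. Batch 2 set Ppargc1a at 73.6, 78.8 and 102 CPM in HET and 72.3, 73.1, 80.6, 83.8 and 92.8 CPM in WT mice, again with overlap. Its log2 fold change was 0.04 (standard error 0.05), with exact permutation p of 0.584 and 0.735.

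Pdk4 (ENSMUSG00000019577, chromosome 6, 5483351 to 5496309, minus strand), a PPAR-alpha target, was at 33.5, 35.7 and 61.9 CPM in HET and 25.8, 36.9 and 41.6 CPM in WT mice of batch 1. In batch 2 the 7 HET mice had 37.03, 41.3, 43.4, 47.4, 60.4, 112 and 114 CPM, and the 5 WT mice had 28.7, 30.6, 39.8, 40.5 and 53.6 CPM. HET replicates 9 and 12 stood far above the other mice of batch 2, and the remaining HET values overlapped the WT values. The log2 fold change of HET over WT was 0.50 (standard error 0.21; 95% interval 0.07 to 0.92; unadjusted p = 0.0246), which did not pass after adjustment over all genes. Without HET replicate 12 it was 0.39, and without HET replicate 9 it was 0.40. Within batches it was 0.21 (standard error 0.18) in batch 1 and 0.76 (standard error 0.35) in batch 2, where the exact permutation p was 0.0896 and leaving out either of those HET mice gave 0.57. The immediate-early gene Fosb stood at 16.8 CPM in HET replicate 12 and at 1.85 CPM in HET replicate 9, and in the other 5 HET mice of batch 2 it was 0.42 to 1.89 CPM. The summed immediate-early markers, 7 of 7 detected in every mouse, ran from 58.8 to 746 CPM in HET and 42.7 to 322 CPM in WT mice of batch 1, and from 67.4 to 157 CPM in HET and 50.5 to 90.1 CPM in WT mice of batch 2. Their part in the Pdk4 values was not tested. The plot of 6 members by mouse shows these overlaps.

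**Figure D3:**
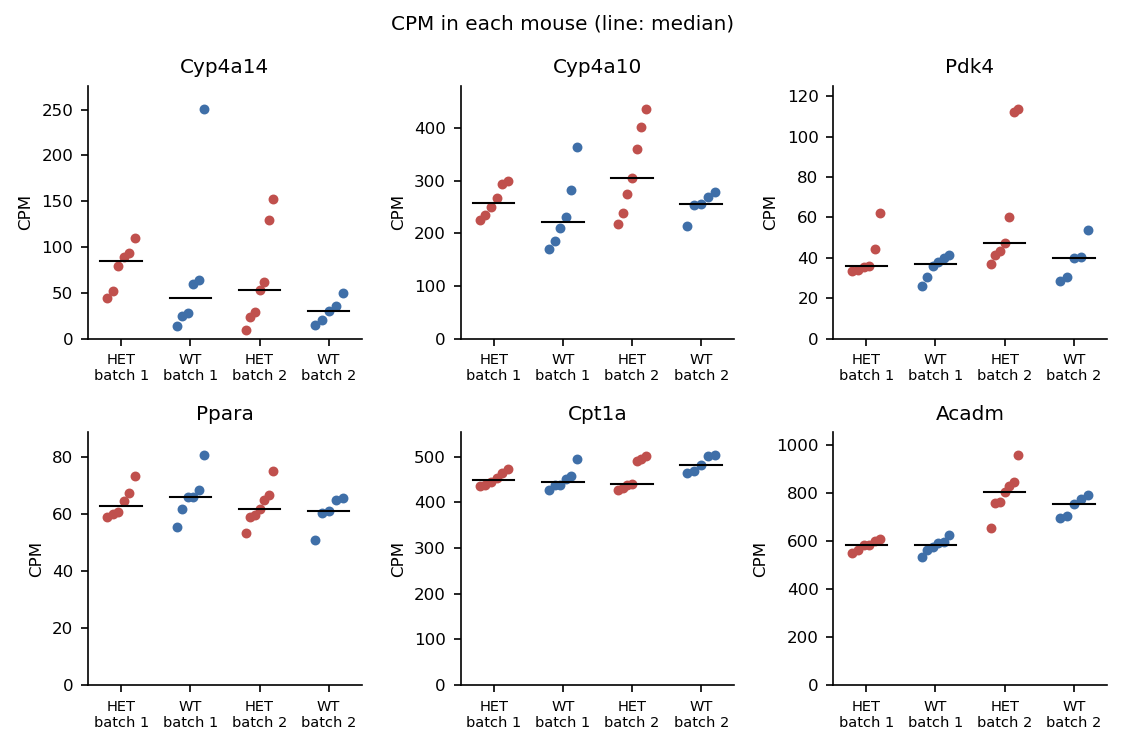
CPM of Cyp4a14, Cyp4a10, Pdk4, Ppara, Cpt1a and Acadm in each mouse, by genotype and batch, with a line at the group median. Cpt1a stays between 426 and 502.6 CPM in all 24 mice, while Cyp4a14 runs from 9.61 to 250.9 CPM within overlapping groups.

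Beyond genotype, most members were steady from mouse to mouse and a few were not. After removing the mean of each genotype and batch, the SD of log2 CPM had a median of 0.0876 over the members, beside 0.162 over 18339 genes, and 28 of the 36 lay under the latter value. Those 18339 genes were kept from a minimum count of 10 and were not matched to the members for count level. The part of count level in this difference was not tested. The steadiest was Echs1, at 0.0532, followed by Hadh at 0.0622, Etfdh at 0.0623 and Etfb at 0.0656. Only Cyp4a14, Pdk4, Acsm3 and Cyp4a10 had SDs over 0.3, at 1.13, 0.459, 0.312 and 0.311. Averaged by route, the 22 genes counted as mitochondrial together had an SD of 0.0513, the 4 peroxisomal genes 0.0907 and the 2 omega oxidation genes 0.711. Counted as mitochondrial were all genes of the carnitine shuttle, dehydrogenase, hydration to thiolysis, unsaturated chain and flavoprotein roles, whatever else their location. An average over more genes varies less, and the median SD of the single genes was 0.0781, 0.150 and 0.722 in these routes. The mitochondrial mean was lowest in WT replicate 4, at -0.11 on the log2 scale from its batch mean, and highest in HET replicate 9, at 0.12. The omega mean was lowest in WT replicate 5, at -1.23, and highest in WT replicate 3, at 1.33. The omega mean of HET replicate 9, at 1.32, was close to that highest value, and that of WT replicate 4 was also below its batch mean, at -0.81.

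Single mice carried the ends of many members at once. HET replicate 9 was the highest of the 12 mice of batch 2 in 20 of the 36 members, 15 of them mitochondrial, and the lowest in 3. Over all genes that mouse was the highest of its batch in 15.6% and the lowest in 14.5%, so it was often extreme in both directions. WT replicate 4 was the lowest of batch 1 in 20 members, 13 of them mitochondrial, and the lowest in 6.84% of all genes. WT replicate 3 was the highest of batch 1 in 8 members and in 6.89% of all genes. HET replicate 6 and WT replicate 2 were each the highest in 6 members, and in 9.35% and 9.70% of all genes. The summed S1 and S2 proximal tubule markers were 11263 CPM in HET replicate 9, inside the range of its batch, and 11902 CPM in WT replicate 4, the lowest of its batch. In WT replicate 4 the collecting duct sum of 134.2 CPM and the podocyte sum of 416.1 CPM were also the lowest of the batch. The part of cell content in these values was not tested. The heat map of the members by mouse shows both animals.

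**Figure D4:**
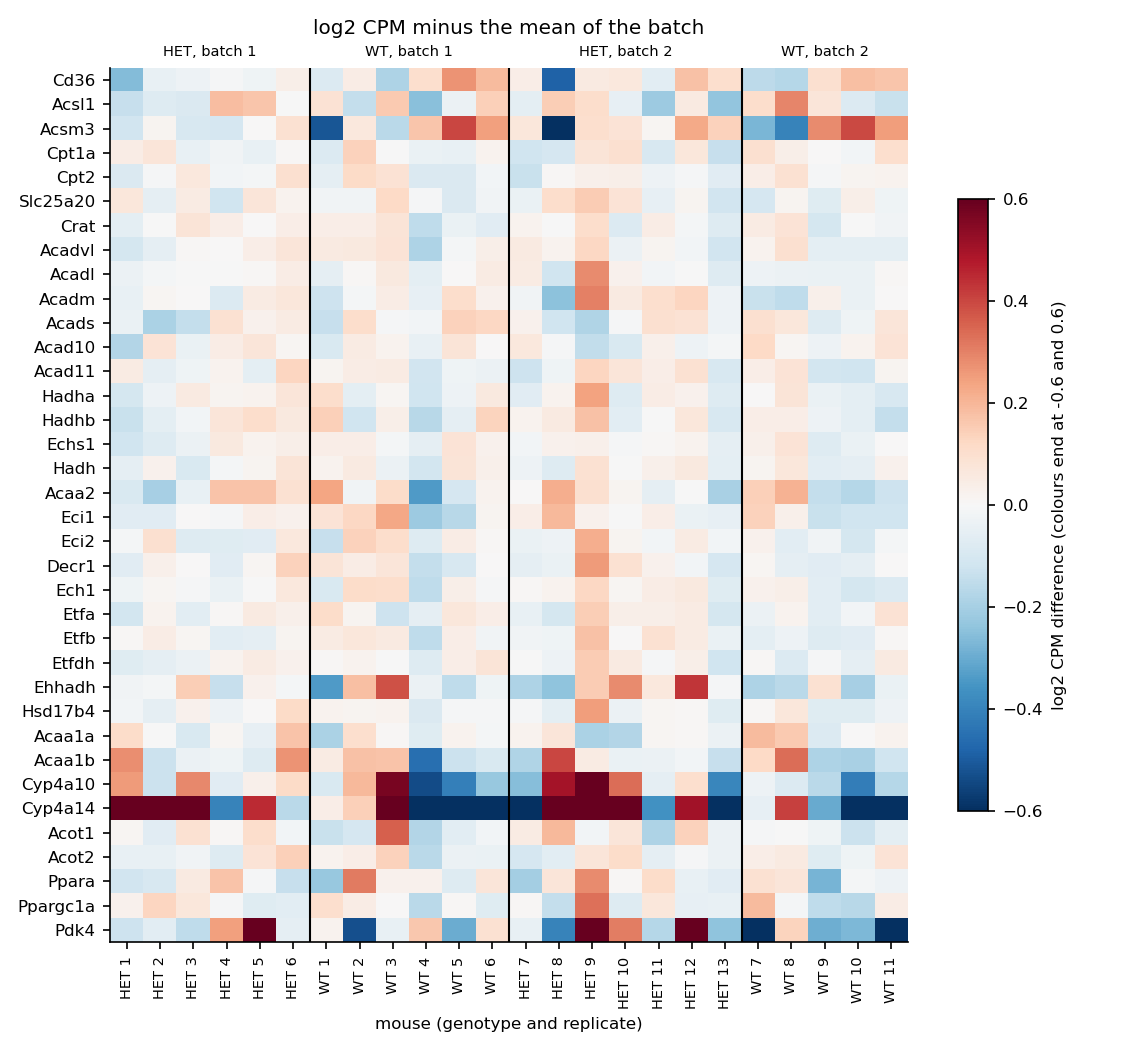
Log2 CPM of each of the 36 members minus its batch mean, in each of the 24 mice, ordered by batch and genotype, with colours ending at -0.6 and 0.6. HET replicate 9 is high and WT replicate 4 low across most mitochondrial genes, and Cyp4a14 reaches the end of the colour scale in many mice.

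Cyp4a10 rose and fell with Cyp4a14 across mice. In a fit with genotype and batch as covariates, the slope of Cyp4a10 on the log2 CPM of Cyp4a14 was 0.25 (standard error 0.02; adjusted p = 7.73e-07, edgeR), a change of 0.25 log2 units for each doubling of Cyp4a14. It was the 1 member called of the 35 others, and 10 of 18338 genes were called (0.0545%). The correlation of the pair was r = 0.91 and rho = 0.89, each with a permutation p of 1e-05, the smallest that 100000 permutations can give, and 0.0001 after adjustment over the 10 pairs tested. Without the 2 mice farthest from the median of Cyp4a10, r was 0.86. It was 0.86 within batch 1 and 0.96 within batch 2 (permutation p = 0.00492 and 1e-05). Both genes lie on chromosome 4 within one cluster of similar genes, and Cyp4a10 had counts that were not whole in every library, so the division of reads between similar Cyp4a genes is uncertain.

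The other members had small slopes per doubling of Cyp4a14, and 29 of the 35 slopes were positive beside 52.7% of all genes, with a median of 0.03 beside 0.0020 over all genes. At an unadjusted p under 0.05 there were 15 positive and 2 negative members, beside 5.68% of all genes in either direction (2.94% higher, 2.73% lower). That count of 17 ran from 10 without HET replicate 9 to 24 without HET replicate 8, and it was 4 on log2(TPM + 1). Among these were Slc25a20 with a slope of 0.05, the peroxisomal thiolase Acaa1b with 0.11, Eci1 with 0.07 and Acot1 with 0.07. The 2 negative ones were Cd36 at -0.09 (unadjusted p = 0.000986) and Acsm3 at -0.14 (unadjusted p = 0.0103), both of the uptake and activation role. Acads, Acad10 and Acaa1a also had negative slopes, of -0.04, -0.02 and -0.0018. By role, 3 of 4 carnitine shuttle genes, 3 of 4 enzymes for unsaturated chains, 2 of 4 peroxisomal genes and 0 of 3 flavoprotein genes were positive at an unadjusted p under 0.05. DESeq2 called 2 members, Cyp4a10 and Slc25a20 (adjusted p = 0.0358), among 34 genes.

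Acaa1b with Cyp4a14 was the only other pair of the 10 to pass adjustment, with r = 0.60 and rho = 0.70 (permutation p = 0.00397 and 0.00017, adjusted 0.0199 and 0.00085). Its r was 0.53 without the 2 mice farthest from the median of Acaa1b, 0.50 within batch 1 (permutation p = 0.165) and 0.70 within batch 2 (permutation p = 0.0058), so it did not pass within batch 1. Acot1 had r = 0.59 and rho = 0.39 with Cyp4a14 (permutation p = 0.0252 and 0.0937, adjusted 0.084 and 0.312), and r was 0.39 without the 2 farthest mice, 0.67 in batch 1 and 0.51 in batch 2. Pdk4, another target of the receptor, had r = 0.26 and rho = 0.09 with Cyp4a14 (permutation p = 0.321 and 0.71), with r = -0.08 in batch 1 and 0.44 in batch 2. Ehhadh and Hadha, the peroxisomal and mitochondrial bifunctional enzymes, had r = -0.03 and rho = 0.0078 (permutation p = 0.915 and 0.975).

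Outside the members, the PPAR-alpha target Ucp2, an inner-membrane carrier, was called with Cyp4a14, with a slope of 0.15 (standard error 0.03; adjusted p = 0.0163). Of the 10 called genes 7 had negative slopes, among them Hsd11b1, Srd5a2 and Selenbp2. Leaving out 1 library gave between 2 called genes (without WT replicate 3) and 11 (without WT replicate 1). Markers that differ between the sexes in mouse kidney were also related to Cyp4a14, though all mice were male. At an unadjusted p under 0.05 (edgeR), 3 of 5 male-biased markers had negative slopes, beside 2.73% of all genes. Of 4 tested female-biased markers 2 had positive slopes, beside 2.94% of all genes. Cyp4a14 is itself on the list of female-biased markers and was left out of that count. The part of sex-biased expression in the slopes was not tested. The plot of 4 genes against Cyp4a14 shows the mice behind these slopes.

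**Figure D5:**
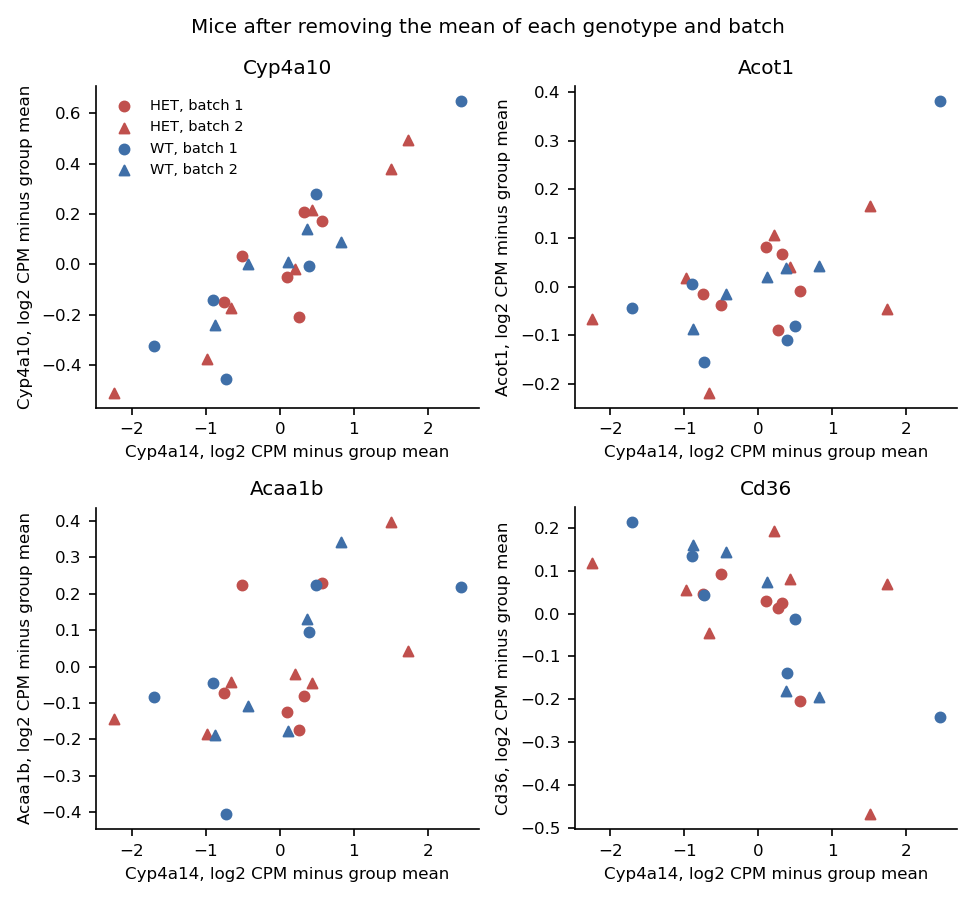
Log2 CPM of Cyp4a10, Acot1, Acaa1b and Cd36 against that of Cyp4a14, 1 point per mouse, after removing the mean of each genotype and batch. Cyp4a10 rises along a tight line, with r = 0.91, Acaa1b and Acot1 scatter more, with r = 0.60 and 0.59, and Cd36 runs the other way.

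No member passed the threshold for a slope on the RNA of the receptor gene. With genotype and batch as covariates, the slope on the log2 CPM of Ppara was called for 0 of 18338 genes (0%) in edgeR and for 12 in DESeq2, with no member in either. It was positive for 33 of 35 members beside 53.5% of all genes, with a median of 0.20 beside 0.02 over all genes. At an unadjusted p under 0.05 there were 3 members beside 7.19% of all genes: Cpt2 with a slope of 0.23, Ech1 with 0.23 and Cyp4a10 with 0.86. That count was 10 without the 3 batch 1 libraries named above for Nbl1, 10 without WT replicate 1 alone, 1 without WT replicate 2, and 0 on log2(TPM + 1). Acsm3 at -0.23 and Cd36 at -0.11 were again the negative ones. The correlation of Ppara with Cyp4a14 was r = 0.29 and rho = 0.29 (permutation p = 0.234 and 0.206), and r was 0.02 in batch 1 and 0.54 in batch 2. Ppara with Cpt1a had r = 0.44 and rho = 0.30 (permutation p = 0.0578 and 0.182), and r was 0.17 without the 2 farthest mice, 0.47 in batch 1 and 0.42 in batch 2. Ppara with Pdk4 had r = 0.12 and rho = 0.06 (permutation p = 0.613 and 0.792). Ppargc1a with Acadm had r = 0.32 and rho = 0.03 (permutation p = 0.235 and 0.903), with r = -0.23 in batch 1, 0.47 in batch 2 and 0.10 without the 2 farthest mice.

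A slope on the level of Nbl1, fitted with genotype and batch as covariates, was called for 0 of 18338 genes (0%) in edgeR and for 23 in DESeq2, with no member in either. Slopes were negative for 28 of the 36 members and positive for 8, beside 44.6% of all genes positive, with a median of -0.03 beside -0.01. The 8 positive ones became 16 without WT replicate 2 and 13 or 14 on leaving out HET replicate 1, 4, 5 or 9 or WT replicate 4, 8 or 10. Ppargc1a at -0.15, Etfb at -0.08 and Ppara at -0.14 had an unadjusted p under 0.05, beside 11.9% of all genes. These 3 turned positive on log2(TPM + 1), where the median slope of all genes was 0.15, 35 members were positive and 13 were called higher. On that scale 3613 genes were called in all. Against each scale's own median, 13 members lay above it on counts and 19 on TPM. The largest positive slopes were those of Acaa1a at 0.08 and Acsl1 at 0.08.

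Most members differed between the batches. Relative to batch 1, 24 members rose and 3 fell in batch 2 at an adjusted p under 0.05, in a background of 63.5% of 18339 genes called, 32.6% higher and 30.9% lower. On log2(TPM + 1), where the median of all genes was 0.83 higher in batch 2, 35 members were called higher and 0 lower. There 13720 of 14505 genes were called, 12821 of them higher. Against each scale's own median, 29 members lay above it on counts and 31 on TPM. The smallest p-values among those that rose were those of Etfa, with a log2 difference of 0.37 (adjusted p = 8.92e-11), Hadha with 0.35 (adjusted p = 9.62e-10), Acadvl with 0.31 (adjusted p = 2.49e-09), Crat with 0.27 and Acadl with 0.31. All 6 acyl-CoA dehydrogenases, 3 of 3 uptake and activation genes and 3 of 3 flavoprotein genes rose on the count scale. Acot2, with -0.34 (adjusted p = 3.61e-09), Ppargc1a, with -0.28 (adjusted p = 9.57e-06), and Acaa1b, with -0.19 (adjusted p = 0.0494), fell on the count scale, and the call of Acaa1b was lost on leaving out any 1 of 14 of the 24 libraries. On log2(TPM + 1) those 3 were 0.54, 0.72 and 0.72 higher, which is -0.28, -0.11 and -0.11 relative to that median. Ppara, at -0.09, and Cyp4a14, at -0.74, did not pass. The S3 proximal tubule markers rose in batch 2 in 5 of 5 genes and the S1 and S2 markers fell in 4 of 7, and their part in the members' shift was not tested.

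The rest of the pathway gave no call between genotypes over all mice. Of 21 other peroxisomal genes 10 were positive in HET over WT, with a median of -0.0005: Amacr, an epimerase for branched chains, was at -0.09 and Acox3, a branched-chain acyl-CoA oxidase, at -0.06. Of 23 other mitochondrial fatty acid genes 13 were positive, with Acsm2, the most abundant at a mean of 3796 CPM, at -0.03 and Mcee, an epimerase of propionate breakdown, at 0.08. Of 24 other PPAR-alpha targets 21 were tested and 14 were positive, with a median of 0.08. Angptl4, a secreted inhibitor of lipoprotein lipase, had a log2 fold change of 0.48 (standard error 0.20; unadjusted p = 0.0235, edgeR). Its highest values, 67.6 and 49.2 CPM, were those of HET replicates 9 and 12, the mice also highest in Pdk4. The other HET mice of batch 2 had 23.3 to 34.0 CPM, and the highest mouse of batch 1 was WT replicate 3 at 39.9 CPM. Txnip, a thioredoxin-binding protein, had a log2 fold change of 0.18 (standard error 0.08; unadjusted p = 0.0273, edgeR). Both genes had an adjusted p of 0.997. Slc27a2, a very long chain acyl-CoA synthetase with a mean of 2917 CPM, was at -0.0008. Of 21 other regulators 13 were positive, with Ppargc1b, a relative of Ppargc1a, at -0.07, the deacetylase Sirt3 at -0.04 and Hnf4a, a nuclear receptor of tubule and liver, at 0.03.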

How the data were processed

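Bulk RNA sequencing libraries of whole kidneys from 24 male mice were used, each a separate mouse by its label. For HET replicate 8 the animal number differs between title and library name, and the column named after the latter was taken. Reads were handled with fastp, STAR and featureCounts on GRCm38, per the submitters' processing notes, and no source used here gives their versions, strandedness or annotation. The authors deposited expected counts, TPM and FPKM for 55487 genes. The deposited FPKM were not used. Expected counts were not whole for 11.8% to 15.4% of genes in a library and were rounded, while the TPM were used as the authors deposited them. Replicates of a group differed beyond counting noise in all 61 pairs (chi-square per degree of freedom at least 9.61).

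Genes were filtered with filterByExpr (minimum count 10) and scaled by TMM in edgeR 4.0.16 (R 4.3.3). HET was tested against WT over all mice with batch as a covariate, within each batch, and for the interaction, by the quasi-likelihood test. Slopes on the log2 CPM (prior count 2) of Ppara, Cyp4a14 and Nbl1 had genotype and batch as covariates. P-values were adjusted by Benjamini-Hochberg over all genes, with a threshold of 0.05, and were read for the members from the whole table. Single members were compared within a batch by a two-sided exact permutation test. Correlations used log2 CPM after removing the mean of each genotype and batch, with 100000 permutations within these groups, and were adjusted over 10 pairs. Promoter sequences came from RefSeq.

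Alternatives were DESeq2 1.42.0, RLE size factors, no filter, limma 3.58.1 with voom, limma on log2(TPM + 1) for genes of mean TPM at least 1, the model without batch, leaving out 3 libraries of batch 1 chosen for their Nbl1 level (HET replicate 6, WT replicates 1 and 2), and leaving out each library. The steps were tested on simulated data. The 16 members described in full were the 3 of smallest p in each direction over all mice, the most abundant of each role, and Ppara, Ppargc1a, Pdk4, Cyp4a10, Cyp4a14, Acot1 and Cpt1a. From the other lists the 2 genes of smallest p and the most abundant were named, and for the batch and slope fits up to 5 members in each direction. Genes outside these rules (Fabp1, Ucp2, Hsd11b1, Srd5a2, Selenbp2, Fosb, Htr6) were named after their values were seen. The members, lists and tests were chosen with earlier results of these data known. Identifiers were found in GENCODE M21 for 55141 of the 55487 genes. Some genes of the other lists are not reported here.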

Additional observations from a re-analysis of the deposited data

Results flagged for a closer look

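In the groups of 5 to 7 mice, the gap between an extreme mouse and its nearest neighbour, divided by the range of the group, passed Dixon's 95% critical value in 13 of 144 groups of log2 CPM (9.03%). Chance gives about 1 in 20 for independent groups of normal values. These groups share the same mice, so the shares are not directly comparable, and the share over all genes was not computed. HET replicate 9 of batch 2 was high in 4 mitochondrial or peroxisomal genes: Acadl at 352.2 CPM (other HET mice of the batch 266.6 to 299.7), Hadha at 233.6 CPM (187.7 to 203.8), Eci2 at 100.1 CPM (83.7 to 89.2) and Hsd17b4 at 288.1 CPM (230.1 to 244.3). HET replicate 8, the mouse whose labels give different animal numbers, was low in Cd36 at 385.2 CPM (517.1 to 609.6) and in Acsm3 at 503.0 CPM (933.0 to 1086), and high in Eci1 at 55.0 CPM (46.5 to 49.5) and Acaa1b at 191.5 CPM (127.9 to 149.8). WT replicate 4 of batch 1 was low in Acadvl at 175.4 CPM (198.1 to 211.4) and Hsd17b4 at 184.9 CPM (195.3 to 199.4). The remaining 3 were Cd36 in HET replicate 1 at 354.8 CPM (412.8 to 436.2), Acadl in WT replicate 11 at 290.6 CPM (281.4 to 283.4) and Acot1 in WT replicate 3 at 59.7 CPM (41.2 to 46.0).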

How the results depend on the processing

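No paired analysis was possible because the replicate numbers follow the order of deposition and tie no HET mouse to a WT mouse. Without the batch term (run for HET against WT over all mice), with RLE size factors and with voom, every count of called members and every named member's value kept its direction and side of the threshold. The count of members called changed with DESeq2 for the slope on Cyp4a14 (2 in place of 1), and on log2(TPM + 1) for the slope on Nbl1 (13 in place of 0) and for the pairs (4 in place of 2). Between batches it was 35 on log2(TPM + 1), and 26 both without the filter and without 3 libraries of batch 1 (HET replicate 6, WT replicates 1 and 2), in place of 27. Over all genes, DESeq2 called 27 in place of 1 within batch 2, 12 in place of 0 for the slope on Ppara, 34 in place of 10 for that on Cyp4a14 and 23 in place of 0 for that on Nbl1. No filter gave 3, 18, 21 and 8 for these, and log2(TPM + 1) gave 3613 for the slope on Nbl1. Leaving out 1 library kept 1579 single values, reversed 63 and lost the call in 14, all 14 that of Acaa1b between batches, whose adjusted p was also 0.125 without the filter and 0.194 without those 3 libraries. The cause was not tested.

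Values that changed sign were mostly near 0, apart from those between batches. On log2(TPM + 1) over all mice they were Hadh -0.045, Ech1 -0.0089, Etfb -0.026, Ppara -0.064 and Ppargc1a -0.0044. Within batch 1 they were Acads 0.00016, Acad10 0.055, Hadh 0.050, Ech1 0.062, Etfb 0.040, Ehhadh 0.059 and Ppara 0.013. Within batch 2 they were Acadm -0.066, Hadh -0.14, Ech1 -0.082, Etfb -0.095, Acot1 -0.093, Ppara -0.14 and Ppargc1a -0.082. Between batches they were Acot2 0.54, Ppargc1a 0.72, Acaa1b 0.72, Ppara 0.81 and Cyp4a14 0.17. Of these, Acot2, Ppargc1a and Acaa1b were called lower on counts and higher on this scale (adjusted p = 3.66e-10, 3.28e-11 and 1.51e-07, limma). For the slope on Nbl1 they were Ppargc1a 0.069, Etfb 0.12, Ppara 0.084, Etfa 0.13 and Cpt1a 0.14, and r turned to 0.31 for Ehhadh with Hadha and 0.13 for Cd36 with Adipoq. Without the filter, Hadh was -0.0061 over all mice and Acad10 0.00062 in batch 1. Without the 3 libraries, Hadh was -0.0062 over all mice, Acadm -0.045, Etfb 0.0082 and Acot1 -0.011 in batch 1, Acaa1a 0.0027 for the slope on Cyp4a14, and r was 0.15 for Ehhadh with Hadha and 0.020 for Cd36 with Adipoq.

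Leaving out 1 library at a time, these values crossed 0. Over all mice Hadh ran from -0.017 to 0.012 and Ppara from -0.018 to 0.036. In batch 1 the ranges were Acad10 -0.020 to 0.032, Acadm -0.022 to 0.022, Cpt1a -0.014 to 0.029, Cyp4a14 -0.13 to 1.03, Ech1 -0.032 to 0.019, Ehhadh -0.082 to 0.067, Hadh -0.037 to 0.0036, Ppara -0.095 to 0.014 and Ppargc1a -0.0014 to 0.050. In batch 2 they were Acsm3 -0.18 to 0.023, Cd36 -0.078 to 0.035, Hadh -0.0097 to 0.024 and Ppargc1a -0.023 to 0.096. The slope of Acaa1a on Cyp4a14 ran from -0.0084 to 0.012 and that of Acaa1b on Nbl1 from -0.019 to 0.16. All 36 members passed the filter on low counts, and the widest 95% interval within a batch, that of Cyp4a14 in batch 2, ran from -0.34 to 2.59.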
